A study of Rattus norvegicus with 5 samples.

Results

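The genes described here encode the co-receptors, chaperone, adaptors and kinases that work next to the Toll-like receptors. They were chosen by name as the rows of the count table for Cd14, Ly96, Cd180, Ly86, Unc93b1, Myd88, Ticam1, Ticam2, Irak4 and Irak3. Of the 10 genes listed, 9 were found among the 17321 genes of the table and all 9 passed the filter on low counts that left 13478 genes to test. Ticam1 was not analysed here. RNA came from lumbar (L4-L6) spinal dorsal horn, where hindlimb sensory fibres end, and the rats were Sprague Dawley. There were 3 CCI libraries and 2 SHAM libraries, all taken on day 9 after surgery. CCI usually stands for chronic constriction injury, in which loose ties around a nerve cause lasting neuropathic pain, and SHAM stands for an operation without that injury. The labels give no age, no side of the cord and no other agent or allele. They do not say whether the libraries came from separate animals, so the p-values cover only library-to-library spread, which may be technical.

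Toll-like receptors detect microbial products and molecules from damaged cells, and in the spinal cord they are found mainly on microglia, the resident macrophages. Most of them do not act alone. CD14 hands lipopolysaccharide to MD-2, the product of Ly96, which sits on the outer part of TLR4, while CD180 and its partner MD-1, the product of Ly86, form a TLR4-like complex that lacks the intracellular signalling domain. UNC93B1 carries the endosomal receptors to their compartment. Inside the cell MyD88 recruits the kinase IRAK4, TRAM (Ticam2) links TLR4 to TRIF (Ticam1), and IRAK3, also called IRAK-M, is known as a brake in macrophages.

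The total estimated count per library was between 20053353 and 23673198, and the share of counts in rows for ribosomal RNA was 16% in CCI 3, against 2.18% to 2.71% in the other libraries. All 9 dorsal horn neuron markers found in the table were detected, with a summed level of 497 to 621 CPM (counts scaled to a common library size) in CCI and 431 to 560 CPM in SHAM. Motor neuron markers, which belong to the ventral horn, summed to 72.6 to 144 CPM in CCI and 336 to 530 CPM in SHAM. Of these 6 markers, 4 were called lower (0.260% of all tested genes). Microglia markers summed to 1160 to 1350 CPM in CCI and 528 to 612 CPM in SHAM, and 10 of 15 were called higher (2.59% of all tested genes). In tissue RNA, fewer cells of a type, less RNA per cell and less of a region in the tissue taken cannot be told apart.

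After CCI, 4 of the 9 genes rose and none fell. The genes that rose were the TLR4-like receptor gene Cd180 and its partner Ly86, the endosomal chaperone gene Unc93b1 and the shared adaptor gene Myd88, with folds of 3.79, 4.93, 3.41 and 2.28. The lipopolysaccharide co-receptor genes Cd14 and Ly96, the TRAM gene Ticam2 and the kinase genes Irak4 and Irak3 did not pass the test. At an unadjusted p under 0.05, 6 of the 9 genes were higher, as Cd14 and Irak4 then joined the 4, and 0 were lower (16.0% of all tested genes had such a p in either direction). A gene was called when edgeR's quasi-likelihood test gave an adjusted p of at most 0.05 and the fold was at least 1.5. Of all tested genes, 2.85% were called in either direction, 2.59% higher and 0.260% lower. The log2 fold change was above 0 for all 9 genes, which was so for 51.9% of all tested genes, and its median was 0.85 over the 9 genes and 0.01 over all tested genes. In 7 of the 9 genes every CCI library lay above both SHAM libraries, as in 18.6% of all tested genes, and in none did every CCI library lie below both, as in 18.1% of them.

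**Figure D1:**
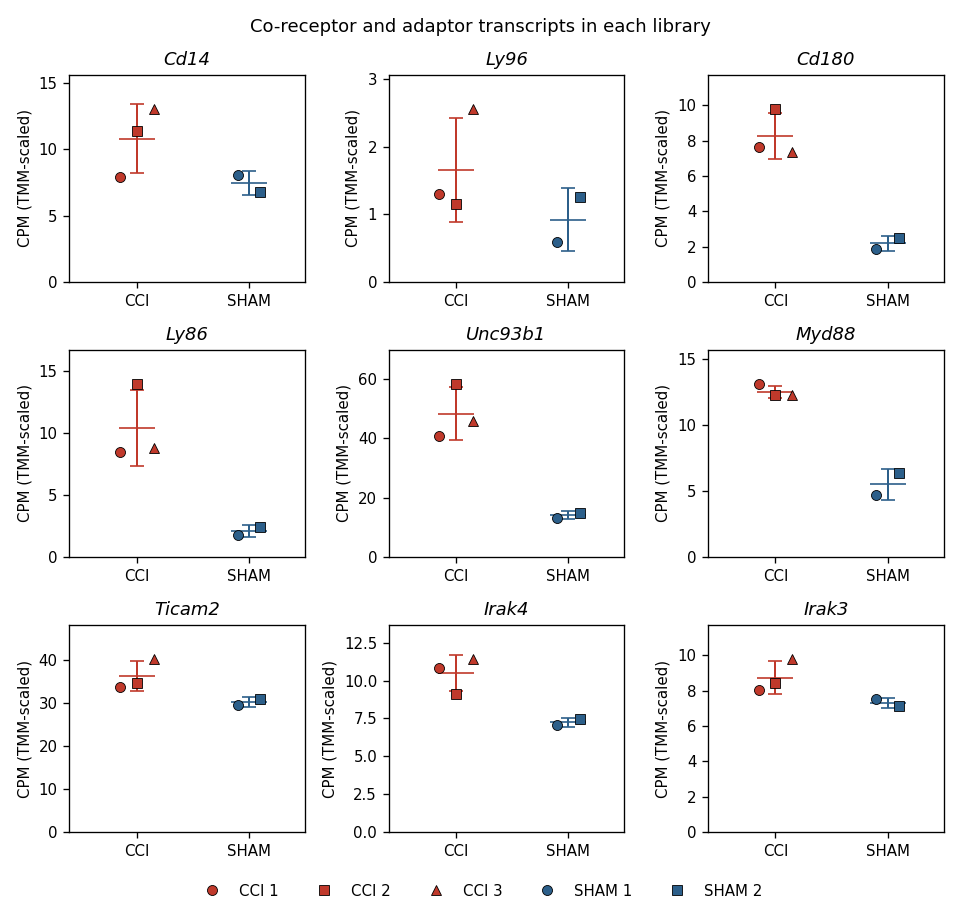
Level of each gene in CPM in the 3 CCI libraries and 2 SHAM libraries, with a horizontal line for the group mean and bars for the SD. The groups stand far apart for Cd180, Ly86, Unc93b1 and Myd88, are separate but close for Ticam2, Irak4 and Irak3, and overlap for Cd14 and Ly96.

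Cd180 encodes RP105, a receptor of B cells and myeloid cells that in mouse macrophages and dendritic cells is known to restrain TLR4. It stood at 7.64, 9.77 and 7.37 CPM in CCI 1, CCI 2 and CCI 3, against 1.86 and 2.50 CPM in SHAM 1 and SHAM 2. The lowest CCI library was well above the highest SHAM library, and CCI 2 was the highest of all. The means were 8.26 ± 1.31 CPM in CCI (SD, n = 3) and 2.18 ± 0.449 CPM in SHAM (SD, n = 2), and Cd180 rose by 1.92 on the log2 scale (SE 0.25, 95% interval 1.36 to 2.48, edgeR adjusted p = 0.00357). These levels rest on 139 to 246 counts per library in CCI and on 41 and 50 counts in SHAM. The B cell markers Ms4a1 and Cd79b were near 0. They had at most 3 counts in any library, and the 5 B cell markers in the table summed to 0.926 to 1.96 CPM in CCI and 1.64 to 1.85 CPM in SHAM.

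Ly86 encodes MD-1, the secreted protein that binds CD180 and is needed for it to reach the cell surface. Ly86 stood at 8.42, 13.9 and 8.80 CPM in CCI 1 to 3, against 1.77 and 2.45 CPM in SHAM 1 and SHAM 2. As for Cd180, the groups did not overlap and CCI 2 was the highest library. Ly86 averaged 10.4 ± 3.06 CPM in CCI (SD, n = 3) and 2.11 ± 0.478 CPM in SHAM (SD, n = 2), and it rose by 2.30 (SE 0.30, 95% interval 1.62 to 2.98, edgeR adjusted p = 0.00419), the highest log2 fold change among the 9 genes. The log2 ratio of Cd180 to Ly86 was -0.14, -0.50 and -0.25 in CCI and 0.07 and 0.03 in SHAM. The groups did not overlap, and the difference of the means, CCI minus SHAM, was -0.35 (two-sided exact permutation test, p = 0.2, adjusted p = 0.4 over the 10 partner ratios compared).

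Unc93b1 had the lowest p among the 4 genes called. The protein is a membrane chaperone that moves TLR3, TLR7, TLR8 and TLR9 from the endoplasmic reticulum to endosomes. It stood at 40.8, 58.2 and 46.0 CPM in CCI 1 to 3, against 13.3 and 15 CPM in SHAM 1 and SHAM 2. All CCI libraries were far above both SHAM libraries, CCI 2 again being the highest. The means were 48.3 ± 8.96 CPM in CCI (SD, n = 3) and 14.2 ± 1.22 CPM in SHAM (SD, n = 2), and Unc93b1 rose by 1.77 (SE 0.17, 95% interval 1.38 to 2.16, edgeR adjusted p = 0.00127), ranking 38 among all tested genes by p.

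Of the receptors that UNC93B1 carries, Tlr7 rose by 1.84 (SE 0.22), Tlr9 by 2.0 (SE 0.35) and Tlr8 by 4.11 (SE 0.48), the last to 7.84 CPM in CCI, against 0.45 CPM in SHAM. Tlr3, at 23.9 CPM in CCI and 19.6 CPM in SHAM, had a log2 fold change of 0.29 (SE 0.14, edgeR adjusted p = 0.363). The differences between these receptors, and the ratio of Unc93b1 to Tlr8, were not tested. The log2 ratio of Unc93b1 to Tlr3 was 0.98, 1.15 and 0.89 in CCI and -0.63 and -0.30 in SHAM, a difference of 1.47 with no overlap. The ratio of Unc93b1 to Tlr7 overlapped between the groups, at 1.61, 1.43 and 1.33 in CCI and 1.44 and 1.57 in SHAM, with a difference of -0.05 in the means. The ratio of Unc93b1 to Tlr9 overlapped too, with a difference of -0.14. The two-sided exact permutation p was 0.1 for Tlr3, the lowest p possible with 10 ways to divide these libraries, 0.7 for Tlr7 and 0.8 for Tlr9, and the adjusted p was 0.333, 0.778 and 0.8. The signs of the Tlr7 and Tlr9 differences changed with single libraries left out and with the deposited TPM.

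Myd88 encodes the adaptor used by every Toll-like receptor except TLR3 and by the interleukin-1 receptors. It stood at 13.1, 12.3 and 12.3 CPM in CCI 1 to 3, against 4.68 and 6.35 CPM in SHAM 1 and SHAM 2. The CCI libraries were nearly level with each other and all well above SHAM. Myd88 averaged 12.5 ± 0.443 CPM in CCI (SD, n = 3) and 5.51 ± 1.18 CPM in SHAM (SD, n = 2), and it rose by 1.19 (SE 0.18, 95% interval 0.77 to 1.60, edgeR adjusted p = 0.00967). The log2 ratio of Myd88 to Irak4, the kinase it recruits, was 0.27, 0.42 and 0.11 in CCI and -0.58 and -0.23 in SHAM. The groups did not overlap and the means differed by 0.67 (two-sided exact permutation p = 0.1, adjusted p = 0.333).

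Cd14 encodes a receptor anchored in the outer membrane, or shed, that binds lipopolysaccharide. It stood at 7.91, 11.4 and 13 CPM in CCI 1 to 3, against 8.09 and 6.80 CPM in SHAM 1 and SHAM 2. CCI 2 and CCI 3 were above both SHAM libraries, but CCI 1 lay between them. The log2 fold change of 0.53 (SE 0.23, 95% interval 0.01 to 1.04) had an edgeR adjusted p of 0.302. Cd14 and Irak4 had fractional estimated counts, which arise where reads fit more than 1 row, so both are uncertain. Schwann cell markers, which belong to peripheral nerve, summed to 127, 327 and 734 CPM in CCI 1 to 3 and to 123 and 136 CPM in SHAM 1 and SHAM 2, so that they had the order of Cd14 within CCI and the opposite order within SHAM. Fibroblast markers summed to 59.8, 677 and 571 CPM in CCI 1 to 3 and to 64.9 and 101 CPM in SHAM. With the mean level of the Schwann cell markers as a covariate the log2 fold change of Cd14 was 0.18 (edgeR adjusted p = 1), and without CCI 1 it was 0.71 (edgeR adjusted p = 0.0664). With CCI 2 and CCI 3 both left out it was 0.07, a value that rests on the single library CCI 1. The part of either cell type in the Cd14 values was not tested.

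Ly96, which encodes MD-2, rested on the fewest counts of the 9 genes. It stood at 1.30, 1.15 and 2.55 CPM in CCI 1 to 3, against 0.591 and 1.25 CPM in SHAM 1 and SHAM 2, which rest on 28, 29 and 48 counts and on 13 and 25 counts. The groups overlapped, with CCI 3 the highest and SHAM 1 the lowest. The log2 fold change was 0.85 (SE 0.49, 95% interval -0.27 to 1.97, edgeR adjusted p = 0.44), so at this depth neither no difference nor one as large as that of Myd88 falls outside the interval. With single libraries left out it ran from 0.40 without SHAM 1 to 1.46 without SHAM 2.

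The receptor that both proteins serve, Tlr4, rose. It stood at 12.8, 18.5 and 17.2 CPM in CCI 1 to 3, against 7.32 and 5.50 CPM in SHAM, with 1.33 as its log2 fold change (SE 0.21, edgeR adjusted p = 0.0109). The log2 ratio of Cd14 to Tlr4 was -0.68, -0.70 and -0.40 in CCI and 0.14 and 0.30 in SHAM. It was lower in every CCI library than in both SHAM libraries, with a difference of the means of -0.82 (two-sided exact permutation p = 0.1, adjusted p = 0.333). The ratios of Ly96 to Tlr4, Cd14 to Ly96 and Cd180 to Tlr4 overlapped between the groups, with differences of -0.53, -0.29 and 0.56.

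Ticam2 encodes TRAM, which carries the TLR4 signal to TRIF at endosomes. It stood at 33.7, 34.7 and 40.1 CPM in CCI 1 to 3, against 29.4 and 31.0 CPM in SHAM 1 and SHAM 2. The groups did not overlap, but the gap between CCI 1 and SHAM 2 was small, and the log2 fold change of 0.26 (SE 0.12, 95% interval -0.01 to 0.53) had an edgeR adjusted p of 0.328. The interval lies below the log2 fold change of each of the 4 genes called.

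Irak4 encodes the first kinase of the MyD88 complex. It stood at 10.8, 9.13 and 11.4 CPM in CCI 1 to 3, against 7.05 and 7.45 CPM in SHAM 1 and SHAM 2. The groups did not overlap, yet the log2 fold change of 0.53 (SE 0.17, 95% interval 0.14 to 0.92) had an edgeR adjusted p of 0.174 and was below the fold required. Irak3 stood at 8.01, 8.42 and 9.76 CPM in CCI 1 to 3, against 7.50 and 7.10 CPM in SHAM 1 and SHAM 2, with 0.26 as its log2 fold change (SE 0.17, 95% interval -0.14 to 0.65, edgeR adjusted p = 0.5). For Cd14, Ly96, Ticam2, Irak4 and Irak3, none of which was called, CCI 3 was the highest of the 5 libraries. The log2 ratio of Irak3 to Irak4 was -0.43, -0.12 and -0.22 in CCI and 0.09 and -0.07 in SHAM (difference -0.27, two-sided exact permutation p = 0.2, adjusted p = 0.4).

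**Figure D2:**
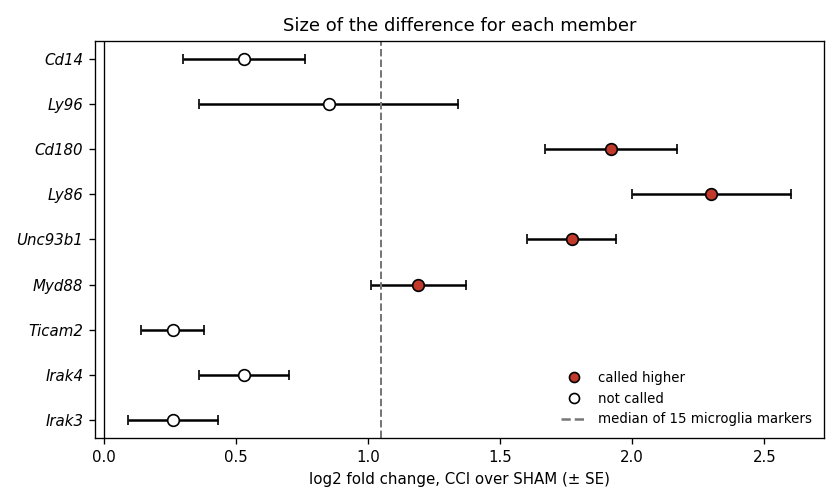
Log2 fold change of each gene, CCI over SHAM, with bars for the SE, filled where called and open where not. The dashed line marks the median of 15 microglia markers, 1.05. Cd180, Ly86, Unc93b1 and Myd88 lie to the right of it, and Cd14, Ly96, Ticam2, Irak4 and Irak3 to the left.

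Leaving out a SHAM library leaves 1 in that group, which is then assumed to vary as the CCI libraries do, and the test has fewer degrees of freedom. Without SHAM 1 none of the 9 genes was called (0.445% of all tested genes), though 4 were higher at an unadjusted p under 0.05, and the edgeR adjusted p was 0.0508 for Unc93b1, 0.101 for Cd180, 0.126 for Ly86 and 0.162 for Myd88. Without SHAM 2 only Unc93b1 was called (0.569% of all tested genes), with an adjusted p of 0.0365, against 0.0507 for Cd180, 0.051 for Myd88 and 0.0637 for Ly86. The log2 fold changes without a SHAM library were 1.68 and 1.85 for Unc93b1, 1.72 and 2.14 for Cd180, 2.08 and 2.54 for Ly86 and 0.98 and 1.41 for Myd88, the values without SHAM 1 first. All 4 genes were called without CCI 1 (5.69% of all tested genes), without CCI 2 (3.36%) and without CCI 3 (2.32%), and with all 5 libraries by edgeR's likelihood ratio test (4.79%), DESeq2 (4.56%) and limma-voom (2.35%). The Myd88 call was also lost with the Schwann cell markers as a covariate (log2 fold change 1.17, adjusted p = 0.0587), in a fit that called 1.28% of all tested genes. CCI 3, where 5 genes were highest, had both the highest Schwann cell sum and the highest share of ribosomal RNA counts. Of these 5 genes, the log2 fold change in the covariate fit was 0.18 for Cd14, 0.27 for Ly96, 0.13 for Ticam2 and 0.14 for Irak3. That of Irak4 was 0.51, against 0.53 without the covariate. With the ribosomal rows removed instead, it was 0.53 for Cd14, 0.85 for Ly96, 0.26 for Ticam2, 0.53 for Irak4 and 0.26 for Irak3, as with those rows. The cause of the CCI 3 values was not tested.

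Set against 15 microglia markers within each library, the genes fell on different sides. The mean log2 CPM of the markers was subtracted from the log2 CPM of each gene. That mean was itself higher in CCI, at 5.4, 5.7 and 5.5 in CCI 1 to 3, against 4.22 and 4.53 in SHAM. A gene with no difference between the groups is therefore lower in CCI on this scale. Ly86 stood at -2.31, -1.89 and -2.35 in CCI and -3.32 and -3.19 in SHAM on this scale, a difference of 1.07. Cd180 stood at -2.45, -2.40 and -2.60 in CCI and -3.25 and -3.16 in SHAM, a difference of 0.72. Unc93b1 stood at -0.05, 0.17 and 0.02 in CCI and -0.48 and -0.61 in SHAM, a difference of 0.59. For these 3 genes every CCI library was above both SHAM libraries on this scale. The share of all tested genes whose groups separate on this scale, in either direction, was not determined.

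Myd88 kept pace with the markers, at -1.69, -2.07 and -1.87 in CCI and -1.97 and -1.85 in SHAM, with overlapping groups and a difference of 0.03. The remaining genes were lower relative to the markers in CCI, as a gene with no difference between the groups would also be. Ticam2 stood at -0.33, -0.58 and -0.18 in CCI and 0.66 and 0.42 in SHAM, a difference of -0.90. The difference was -0.91 for Irak3, -0.64 for Irak4, -0.66 for Cd14 and -0.37 for Ly96. The groups did not overlap for Irak3, Irak4 and Cd14 and overlapped for Ly96. The two-sided exact permutation p was 0.1 for Ly86, Cd180, Unc93b1, Ticam2, Irak4 and Irak3, the smallest the design allows (adjusted p = 0.15 over the 9 genes), 0.2 for Cd14, 0.5 for Ly96 and 0.9 for Myd88, so none could pass 0.05.

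**Figure D3:**
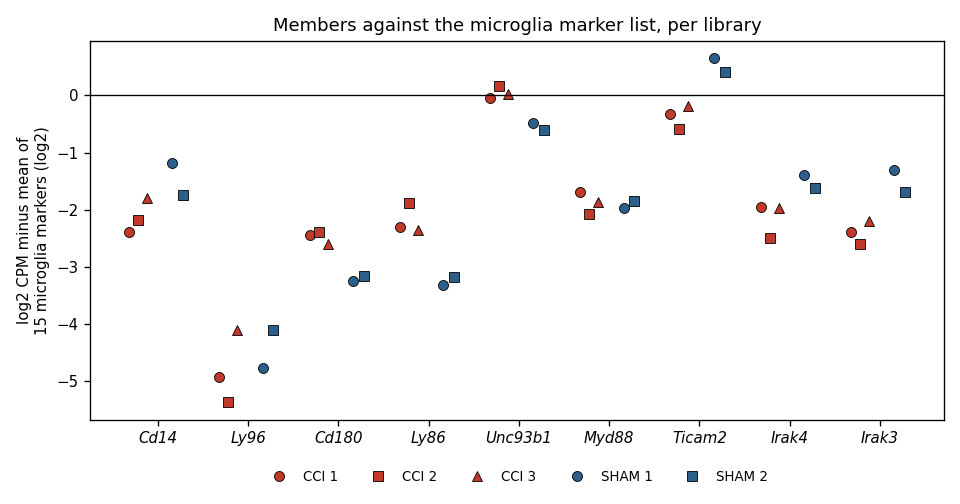
Log2 CPM of each gene minus the mean log2 CPM of 15 microglia markers, 1 symbol per library, with CCI left of SHAM. Ly86, Cd180 and Unc93b1 are higher in all CCI libraries than in either SHAM library, and Myd88 and Ly96 overlap. Ticam2, Irak4, Irak3 and, by a small gap, Cd14 are lower in all CCI libraries.

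Markers of infiltrating blood cells differed between the CCI libraries. The T cell marker Cd3e had 0, 56 and 9 counts in CCI 1 to 3 and 0 and 0 counts in SHAM, and the T cell list summed to 4.86, 18.7 and 7.37 CPM in CCI 1 to 3, against 4.23 and 3.90 CPM in SHAM, with none of its 3 tested genes called by edgeR's quasi-likelihood test (0 at an unadjusted p under 0.05), the likelihood ratio test, DESeq2 or limma-voom. Of the monocyte markers, Plac8, the 1 gene called of 3 tested, had 658, 1406 and 629 counts in CCI and 17 and 28 counts in SHAM. Cd3e and Plac8, which were picked after their values were seen, were highest in CCI 2, as were Cd180, Ly86, Unc93b1 and the fibroblast sum, of which none of 7 tested markers was called by edgeR's quasi-likelihood test (1 at an unadjusted p under 0.05) or limma-voom, and 1, Aldh1a2, by DESeq2 and the likelihood ratio test. Microglia markers also summed highest in CCI 2, at 1170, 1350 and 1160 CPM in CCI 1 to 3. The monocyte list as a whole did not follow CCI 2. It summed to 178, 238 and 286 CPM in CCI 1 to 3 and to 128 and 140 CPM in SHAM. Its other tested genes, the widely expressed Fn1 and Vcan, were highest in CCI 3. The border macrophage sum ran from 76.8 to 135 CPM after CCI, against 79.5 to 83 CPM after SHAM. Its largest part was Siglec1, whose log2 fold change was 0.27. Over the 8 tested border macrophage markers the median log2 fold change was 1, and 7 were above 0. Of these 8, edgeR's quasi-likelihood test called only Folr2 and limma-voom only Ms4a7. DESeq2 and the likelihood ratio test called both. Ms4a7 had counts of 8, 42 and 19 in CCI 1 to 3, and its count was 0 in each SHAM library. Neutrophil markers summed to 20.4 to 22 CPM in CCI and 6.56 to 7.62 CPM in SHAM, most of it from Csf3r, the called gene of that list, while 6 of its 10 markers, Mpo and Elane among them, had at most 5 counts in every library. Without CCI 2 the log2 fold change was 1.79 for Cd180, 2.03 for Ly86 and 1.62 for Unc93b1. In CCI 1, where Cd3e was at 0 but Plac8 had 658 counts, each of these 3 genes was above both SHAM libraries. The part of blood cells in the differences of these 3 genes was not tested.

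The deposited per-length values, on the TPM scale, allow levels to be compared between genes. In CCI the order from the highest was Unc93b1 at 27.8 ± 5.31, Ly86 at 17.2 ± 5.38, Ticam2 at 13.7 ± 1.39, Cd14 at 9.26 ± 2.28, Myd88 at 7.49 ± 0.205, Ly96 at 7.20 ± 3.14, Irak4 at 5.85 ± 0.642, Cd180 at 4.14 ± 0.672 and Irak3 at 3.73 ± 0.414 TPM (SD, n = 3). In SHAM it was Ticam2 at 11.2 ± 0.395, Unc93b1 at 7.99 ± 0.646, Cd14 at 6.29 ± 0.815, Irak4 at 3.98 ± 0.135, Ly96 at 3.91 ± 1.83, Ly86 at 3.43 ± 0.718, Myd88 at 3.23 ± 0.673, Irak3 at 3.06 ± 0.13 and Cd180 at 1.07 ± 0.216 TPM (SD, n = 2). Ly86 stood in place 2 in CCI and in place 6 in SHAM. Among neighbours in the order, only Ticam2 and Cd14, and Irak4 and Cd180, had separate library values in CCI. Within each CCI library Unc93b1 was above Ly86, at 23.2, 33.6 and 26.5 against 13.8, 23.4 and 14.5 TPM in CCI 1 to 3. The other overlapping neighbours in CCI did not keep their order in every library. In SHAM, Irak4 overlapped with Ly96, Ly96 with Ly86, Ly86 with Myd88 and Myd88 with Irak3, and the other neighbours were separate. Of these overlapping neighbours, only Ly86 and Myd88 kept their order in both SHAM libraries, at 2.92 against 2.76 and 3.94 against 3.71 TPM.

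**Figure D4:**
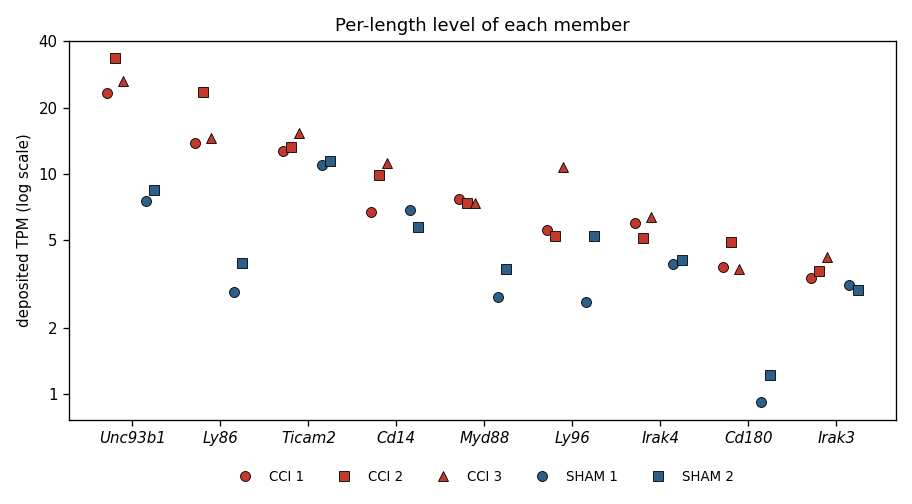
Deposited TPM of each gene on a log axis, 1 symbol per library, with CCI left of SHAM and genes ordered by their mean in CCI. Unc93b1 is the highest in CCI, Ticam2 is the highest in SHAM, and Cd180 is the lowest in SHAM at 0.92 and 1.23 TPM.

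Promoter sequences of 6 of the 10 genes were found in RefSeq (GRCr8). They are 300 bases long, from 250 before to 50 after the start of the gene, and were searched on both strands for 4 short motifs. These were GAGGAA, the core bound by the myeloid factor PU.1, TGANTCA (AP-1), an NF-kB motif (GGGA, any 4 bases, CC) and the interferon-stimulated response element (ISRE: GAAA, any 2 bases, GAAA). The promoters of Myd88 and Cd180, which were called, and of Cd14, which was not, are printed 5′ to 3′ on the strand of the gene, with matches in capitals. They lie at chr8:127956181-127956480 (minus strand) for Myd88, chr2:35589680-35589979 (plus strand) for Cd180 and chr18:28611109-28611408 (minus strand) for Cd14.
Myd88: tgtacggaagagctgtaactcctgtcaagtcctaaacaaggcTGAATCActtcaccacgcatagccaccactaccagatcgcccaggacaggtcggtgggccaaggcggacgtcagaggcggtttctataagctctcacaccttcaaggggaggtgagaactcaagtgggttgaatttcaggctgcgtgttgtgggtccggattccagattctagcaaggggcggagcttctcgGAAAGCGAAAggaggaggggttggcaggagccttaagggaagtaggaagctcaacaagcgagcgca
Cd180: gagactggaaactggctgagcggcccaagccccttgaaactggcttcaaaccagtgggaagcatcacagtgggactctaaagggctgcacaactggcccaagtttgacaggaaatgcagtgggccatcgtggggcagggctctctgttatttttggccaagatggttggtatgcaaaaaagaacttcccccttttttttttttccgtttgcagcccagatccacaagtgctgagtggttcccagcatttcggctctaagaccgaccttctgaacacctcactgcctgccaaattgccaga
Cd14: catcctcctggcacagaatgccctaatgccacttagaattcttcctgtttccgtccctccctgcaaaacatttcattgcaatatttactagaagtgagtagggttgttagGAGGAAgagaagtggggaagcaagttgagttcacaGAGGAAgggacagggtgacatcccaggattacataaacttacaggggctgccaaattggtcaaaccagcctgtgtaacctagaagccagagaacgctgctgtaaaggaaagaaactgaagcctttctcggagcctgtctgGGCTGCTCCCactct

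The Myd88 promoter held 1 match to TGANTCA, found in 7.33% of 33469 rat promoters, and 1 match to the ISRE, found in 3.92%, which starts at position -16 from the gene's start. The Cd14 promoter held 2 matches to GAGGAA, at -140 and -105 (27.6% of promoters have at least 1), and 1 match to the NF-kB motif on the other strand (19.3%). None of the 4 motifs was in the Cd180 window. Among the other genes that were not called, Ticam2 held 1 match to GAGGAA and 2 to the NF-kB motif, Irak4 held 1 to GAGGAA and Irak3 held 2 to the NF-kB motif. No match overlapped one to another motif. A match describes the letters of the window and not a bound site.

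For each called gene, the most similar genes over the 5 libraries were those with the smallest Euclidean distance between log2 CPM profiles, each centred on its own mean, among 12759 other genes with a mean of at least 1 CPM. For Cd180 they included Tyrobp (distance 0.11) and Cd37 (0.15), against a median distance of 2.12 over all genes compared. For Ly86 they were Lat2 (0.29), Sla (0.31) and Irf8 (0.35), and for Unc93b1 they were Klhl6 (0.06), Gna15 (0.14) and Nlrp3 (0.17). For Myd88 they were Ucp2 (0.08), Slc37a2 (0.09) and Zfp217 (0.14). The nearest genes named for Cd180, Ly86 and Unc93b1 had log2 fold changes between 1.66 and 2.47, and those of Myd88 between 1.16 and 1.24. Because the distance includes the difference between CCI and SHAM, fold changes near that of the called gene follow from how the genes were picked.

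Of 93 other genes of the pathway, in 8 lists, 74 were tested, and 13 rose and none fell (2.59% of all tested genes rose). The log2 fold changes of the 74 had a median of 0.26. With limma-voom 11 were called higher, Tlr1 and Bcl3 being lost, and without SHAM 1, which leaves 1 SHAM library, 2 were, Pik3ap1 and Inpp5d, so that no Toll-like receptor gene and none of Map3k8, Nfkbiz, Bcl3, Irf5 and Irf8 was. The receptor list had the highest median of the 8. Of 10 tested Toll-like receptor genes 6 rose, among them Tlr2 by 1.87 (SE 0.19), Tlr4, Tlr7, Tlr8 and Tlr9, with a list median of 1.85, or 1.73 with Tlr11, which had 0 counts in SHAM, set to its bound of 3 counts per library. Tlr8 had 11 and 8 counts in SHAM 1 and SHAM 2.

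Between the receptors and the nucleus, single genes rose in lists of which most members did not pass. Pik3ap1, an adaptor that links Toll-like receptors to PI3 kinase, was the 1 gene called of 8 other adaptors and proximal kinases, at 16.2 CPM in CCI and 5.46 CPM in SHAM (log2 fold change 1.57, SE 0.16). Map3k8, the kinase upstream of ERK in this pathway, was the 1 called of 10 in the TAK1 and IKK list, at 10.1 CPM in CCI and 3.28 CPM in SHAM (1.62, SE 0.21). Of 8 NF-kB and IkB genes 2 rose, the atypical IkB genes Nfkbiz (1.44, SE 0.19) and Bcl3 (1.97, SE 0.42). Of 9 genes of the TRIF and interferon regulatory factor list 2 rose, Irf8, a transcription factor of the myeloid lineage (2.47, SE 0.28), and Irf5, which acts downstream of MyD88 (1.33, SE 0.18). Of 12 negative regulators 1 rose, the phosphatase gene Inpp5d (1.39, SE 0.14).

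No gene of receptor loading, folding and trafficking was called among 10 tested by edgeR's quasi-likelihood test, where 1 had an unadjusted p under 0.05, or by limma-voom, while Lbp was called by DESeq2 and by the likelihood ratio test. Those with the lowest p were Lbp, the lipopolysaccharide-binding protein that loads CD14, at 0.463, 5.52 and 5.67 CPM in CCI 1 to 3, against 0.136 and 0.250 CPM in SHAM (edgeR adjusted p = 0.216), and Hsp90b1, the folding partner of most Toll-like receptors, whose log2 fold change was 0.19 (edgeR adjusted p = 0.372). Of 16 secreted products of Toll signalling only 7 had enough counts to be tested, and none was called by edgeR's quasi-likelihood test, with 4 at an unadjusted p under 0.05, or by limma-voom. DESeq2 called 4 of them higher, Ccl2, Cxcl10, Il1b and Ptgs2, as did the likelihood ratio test. Ccl2, which attracts monocytes, stood at 4.49, 1.51 and 2.12 CPM in CCI, against 0.0455 and 0.450 CPM in SHAM (edgeR adjusted p = 0.0844). Il1b stood at 0.972, 2.66 and 0.955 CPM in CCI, against 0.364 and 0.0999 CPM in SHAM (edgeR adjusted p = 0.109). In both, the CCI libraries were all above SHAM, where Ccl2 rests on 1 and 9 counts and Il1b on 8 and 2 counts.

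**Figure D5:**
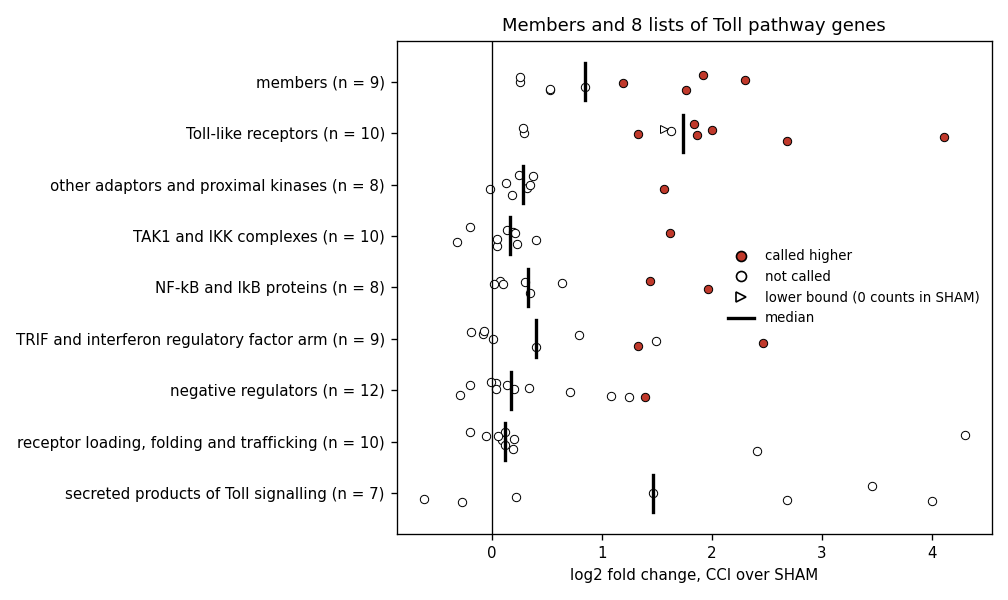
Log2 fold change, CCI over SHAM, of the 9 genes and of the tested genes of 8 pathway lists, filled where called, with a bar at each median (1.73 for the receptors). Tlr11, with 0 counts in SHAM, is drawn at its lower bound of 1.57. The Toll-like receptors and the 9 genes hold most of the filled points, and the other lists have medians of 0.40 or less except secreted products, at 1.47 with none called by edgeR's quasi-likelihood test.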

How the data were processed

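Dorsal horn total RNA was read on Illumina HiSeq instruments, per the labels. The authors deposited estimated counts per gene symbol, with kallisto 0.44.0 and the build rn6 named in the submitters' processing notes. The second table, named TPM, is a per-length signal to which the authors applied TMM (trimmed mean of M-values) scaling, per the labels, and its column totals vary. The annotation used for counting was not given in the sources used here. Fractional estimated counts (more than 0.01 from a whole number) occurred in 18.2% of tested genes.

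Counts were rounded and tested in R 4.3.3 with edgeR 4.0.16: filterByExpr at a minimum count of 10, TMM scaling, glmQLFit (robust) and a two-sided glmQLFTest with 3 residual degrees of freedom. Benjamini-Hochberg adjustment ran over all tested genes. Each SE was taken as the log2 fold change over the square root of F, and 95% intervals are for single genes, unadjusted. Log2 CPM had a prior count of 2. The code was tested on simulated data. The genes, lists and thresholds were chosen with earlier results of these data known. Besides the 9 genes, the text names up to 4 called genes per pathway list by p (or 2 uncalled where none was called), the partner receptors Tlr3, Tlr4, Tlr7 and Tlr9, and the 3 nearest genes of each called gene, of which 1 is not reported here; marker genes named with counts were picked after their values were seen. Alternatives covered the likelihood ratio test, DESeq2 1.42.0, limma 3.58.1, scaling, filter and prior count. They also covered removal of the ribosomal rows, the TPM table, a Schwann cell covariate and left-out libraries. Figures were drawn with matplotlib 3.10.9.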

Additional observations from a re-analysis of the deposited data

How the results depend on the processing

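The log2 fold change of each of the 9 genes stayed above 0 under every alternative in which it was tested, and Cd14, Ly96, Ticam2, Irak4 and Irak3 were called under none. Ly96 was not tested at a minimum count of 30. The number of the 9 genes called higher was 0 to 4 with single libraries left out, being 0 without SHAM 1 and 1 without SHAM 2, and the number called lower was 0 throughout. The number of all genes called was 61 to 763 with single libraries left out, 646 with the likelihood ratio test, 614 with DESeq2 and 172 with the Schwann cell covariate, against 384. The number of pathway genes called higher was 2 to 19 with single libraries left out and 21 with the likelihood ratio test. The cause of these changes was not tested.

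Signs of small within-library differences changed as follows. Unc93b1 over Tlr7 ran from -0.12 to 0.02 with single libraries left out (0.01 without CCI 3, 0.02 without SHAM 2) and was 0.13 with the TPM table. Unc93b1 over Tlr9 ran from -0.38 to 0.11 (0.11 without CCI 3, 0.10 without SHAM 2) and was 0.45 with the TPM table. Cd14 over Ly96 ran from -0.90 to 0.32 (0.32 without SHAM 1), and Ly96 over Tlr4 from -1.22 to 0.17 (0.17 without SHAM 2). Myd88 relative to the microglia markers was -0.05 with the TPM table, -0.06 without CCI 1 and -0.03 without SHAM 1. Against 8 homeostatic microglia markers, an alternative chosen after seeing the data, the difference was 1.43 for Ly86, 1.08 for Cd180, 0.95 for Unc93b1, 0.39 for Myd88, -0.54 for Ticam2, -0.28 for Irak4, -0.55 for Irak3, -0.30 for Cd14 and -0.01 for Ly96. Depth limits Ly96 most, with 13 to 48 counts per library. No paired analysis was possible because the labels carry no replicate numbers: the numbers used here only name libraries, and nothing ties a CCI library to a SHAM library by animal, batch or day.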
